A study of Mus musculus with 12 samples.

Results

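The comparison described here is between mesenchymal progenitors of overloaded muscle with and without the floxed alleles of Yap1 and Taz. It takes 6 of the 12 libraries of the series, chosen by their labels alone: the 3 overloaded libraries of the conditional double knockout (cdKO) and the 3 overloaded libraries of the control. Control mice carried the Pdgfra-CreERT2 driver and nothing else that the labels name. The cdKO mice carried the same driver together with Yap1 flox/flox and Taz flox/flox. All the cells were Pdgfra-positive fibro-adipogenic progenitors sorted from plantaris, a calf muscle, at 1000 cells a tube, and their 3′ RNA ends were counted. The remaining 6 libraries, 3 of each genotype, came from sham plantaris and are used only beside the overloaded values. Because the driver acts in every cell that expresses Pdgfra in the animal, other organs could also lose both genes. The sources used here do not give the age and sex of the mice, the tamoxifen schedule, the time after surgery, which exons are floxed or whether animals were pooled. Nothing in the labels says that the 3 libraries of a group came from separate animals, so a p-value here reflects the scatter among tubes, which could be technical in part.

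YAP and TAZ (gene symbols Yap1 and Wwtr1) are co-activators that the Hippo kinases hold in the cytoplasm. When cells are stretched or sit on stiff matrix, both proteins enter the nucleus and bind TEAD transcription factors, which sit on DNA and drive genes of growth, matrix and the cytoskeleton. Fibro-adipogenic progenitors lie between muscle fibres, make much of the muscle's connective tissue and send signals to muscle stem cells. Overload of a muscle makes them leave rest, divide and secrete matrix and chemokines.

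The comparison asks which genes differ without YAP and TAZ in these cells once the muscle carries extra load. Of 8161 genes with enough counts to be tested, 3 passed an adjusted p of 0.05 in edgeR, which is 0.0368% of the genes tested. Wwtr1 itself and F2rl1, the gene of a receptor that proteases switch on, were lower in cdKO (2 genes, 0.0245%). Cxcl13, the gene of a chemokine that attracts B cells, was higher (1 gene, 0.0123%). An unadjusted p under 0.05 was reached by 569 genes, or 6.97% of those tested (3.73% higher and 3.25% lower in cdKO). In 439 genes the cdKO libraries all lay above the control libraries and in 433 all below, which is 5.38% and 5.31% of the genes tested. The median log2 fold change of all genes tested was 0.03, and 292 genes had an estimate of at least 1 and 141 of at most -1 on that scale. The plot of all genes shows this.

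**Figure D1:**
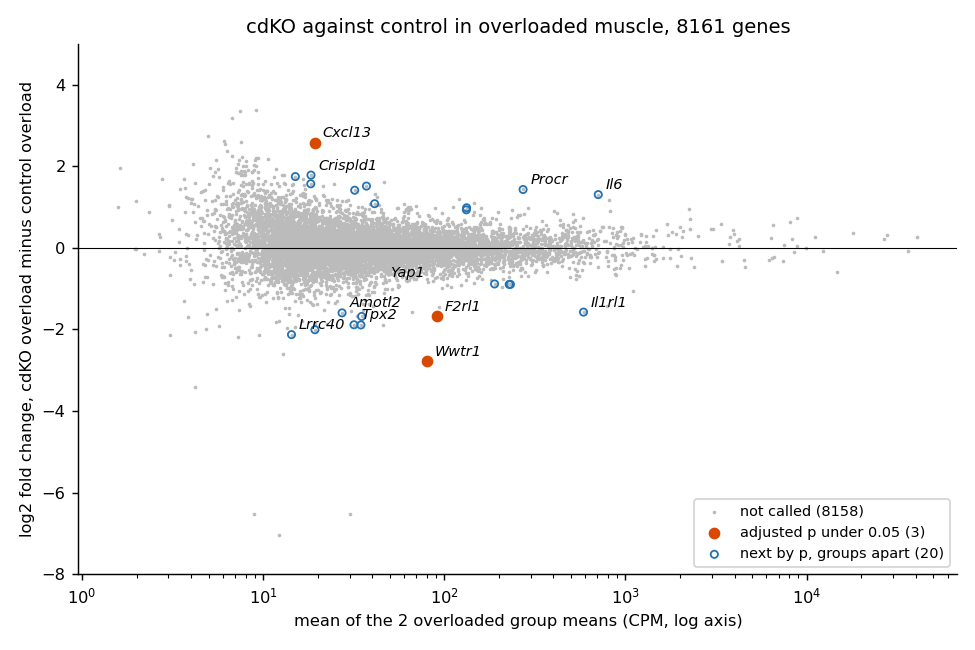
Log2 fold change of cdKO against control in overloaded muscle (vertical axis) against the mean of both group means in CPM (log axis) for 8161 genes. The 3 called genes are filled orange points, the 20 next genes by p whose groups lay apart are blue rings, and grey points are all other genes; the 3 points below -6 are haemoglobin genes.

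The deleted genes were read first, as a check of the labels. All levels below are CPM, the counts of a gene relative to the scaled library total, and they compare libraries, not genes. Wwtr1 (chromosome 3, 57455649 to 57575910 on the minus strand, GRCm38) had 174, 125 and 125 CPM in the 3 control libraries and 20.1, 18.2 and 22.5 CPM in the 3 cdKO libraries. Every cdKO library lay far below every control library. Wwtr1 fell by 2.78 on the log2 scale (SE 0.28, adjusted p 1.83e-06), which is 6.85-fold lower. In sham muscle it fell by 1.74 (SE 0.27, adjusted p 0.00733), from 119 to 34.8 CPM in the group means. Yap1 (chromosome 9, 7931999 to 8004596, minus strand) had 91.3, 47.4 and 39.7 CPM in control and 40.2, 22.1 and 33.7 CPM in cdKO. The lowest control library was just under the highest cdKO library, so the groups overlapped. The estimate was -0.85 (SE 0.32, adjusted p 0.586) in overloaded muscle and -0.61 (SE 0.30) in sham muscle, and neither passed. Because 3′ ends were counted and the labels do not name the floxed exons, RNA that lacks the deleted exons may still be counted. Pdgfra, the receptor used to sort the cells, had 443, 376 and 308 CPM in control and 321, 391 and 259 CPM in cdKO, with an estimate of -0.21 (SE 0.25, adjusted p 0.930).

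**Figure D2:**
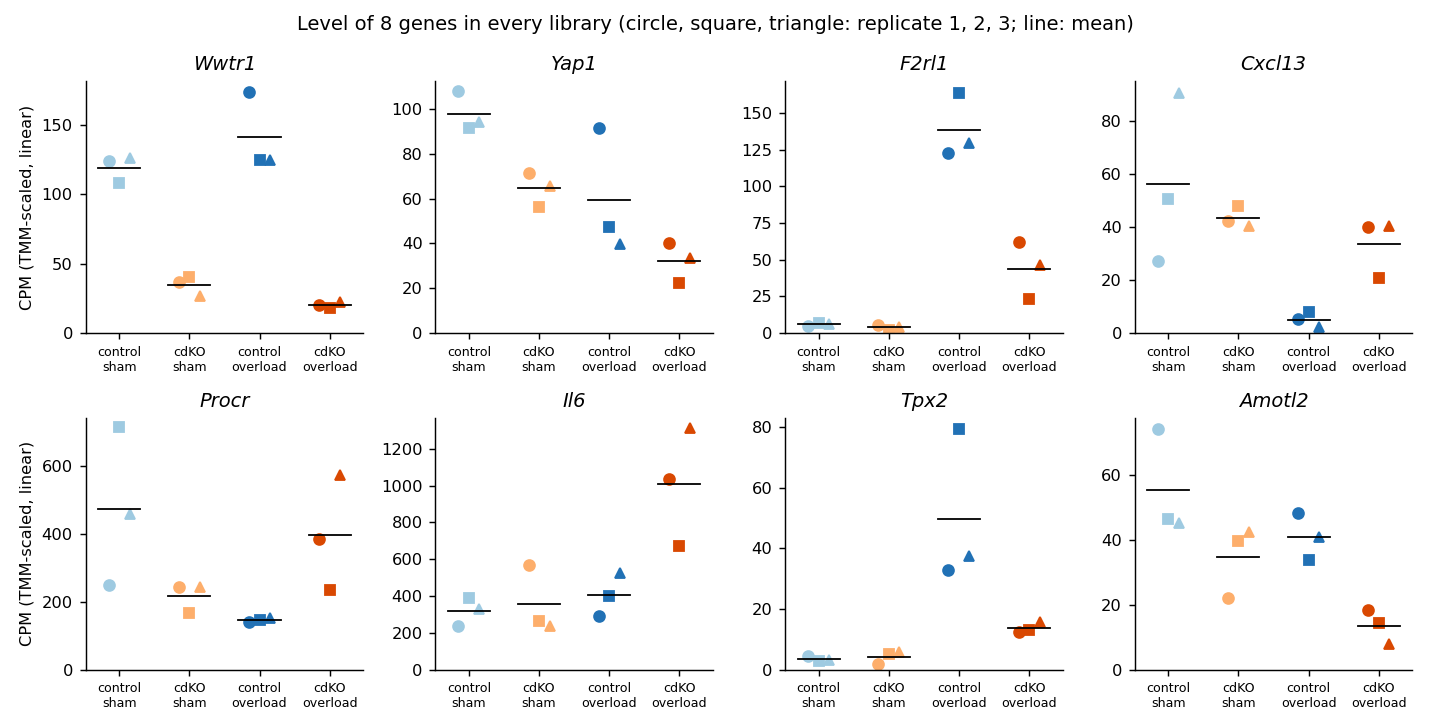
CPM (vertical axis, linear) of 8 genes in each of the 12 libraries, in the order control sham, cdKO sham, control overload and cdKO overload; symbols mark replicate 1, 2 and 3 and lines the group means. Wwtr1 and F2rl1 lie lower and Cxcl13 higher in cdKO overload than in control overload, while Procr is higher in cdKO under overload and lower in cdKO under sham.

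The libraries of the comparison held 590236 to 1564581 counts, so that a floor of 3 counts corresponds to 1.95 to 5.17 CPM. Libraries of 1 genotype and of different genotypes were about equally alike: the correlation of log2 CPM over genes, which are not independent replicates, ran from 0.878 to 0.945 within control, from 0.916 to 0.938 within cdKO and from 0.878 to 0.932 across the 9 pairs of a control and a cdKO library. The 7 genes that define these progenitors were all abundant, with a summed level of 50989 to 72918 CPM in control and 75030 to 83420 CPM in cdKO. Col3a1 was the largest part, with 34233, 46393 and 30573 CPM in control and 49330, 41018 and 43869 CPM in cdKO. Among markers of other cells, endothelial markers summed to 59.1 to 221 CPM in control and 78.8 to 118 CPM in cdKO, macrophage and myeloid markers to 10.4 to 62.0 and 11.2 to 66.3 CPM, lymphocyte markers to 0 to 29.3 and 13.0 to 22.5 CPM, and myofibre markers to 13.6 to 93.0 and 34.8 to 75.7 CPM. Pericyte and smooth muscle markers summed to 214 to 362 CPM in control and 380.1 to 417 CPM in cdKO, so that the groups did not overlap, and Steap4 was the largest part. Schwann and nerve markers summed to 329 to 372 and 339.9 to 459 CPM, nearly all from Pmp22 and Ncam1, and muscle stem cell markers to 105 to 145 and 129 to 141 CPM. Tenocyte markers summed to 2362 to 5117 and 3714 to 4036 CPM, nearly all from Thbs4, while Scx, Tnmd and Mkx had too few counts to be tested. The part of these markers in the results was not tested. Erythroid markers stood apart: their sum was 281, 12.3 and 49.0 CPM in control and 0, 0 and 1.12 CPM in cdKO, so control replicate 1 carried the most blood RNA. Xist, which is transcribed from the inactive X chromosome of females, had 102, 98.7 and 99.2 CPM in control and 3.09, 93.6 and 3.37 CPM in cdKO. The summed level of Y-linked genes was 246, 72.7 and 88.7 CPM in control and 337, 204 and 310 CPM in cdKO. The mixture of female and male RNA therefore differed among the libraries and was not balanced between the genotypes. In cdKO replicates 1 and 3 Xist was nearly absent, while cdKO replicate 2 resembled control replicate 1 in both measures. Apart from a fit with the Y-linked level as a covariate, the part of this mixture in the results was not tested.

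F2rl1 encodes protease-activated receptor 2, which is cut open by trypsin-like proteases and coagulation factors. The gene (chromosome 13, 95511732 to 95525227, minus strand) had 122, 164 and 130 CPM in control and 61.8, 23.4 and 46.0 CPM in cdKO, from 71 to 252 counts and 18 to 41 counts a library. Control and cdKO libraries did not overlap, and cdKO replicate 2 was the lowest. F2rl1 fell by 1.68 (SE 0.29, adjusted p 0.0221), which is 3.20-fold lower. In sham muscle it was near the floor in both genotypes, at 5.94 and 3.82 CPM, with an estimate of -0.76 (SE 0.70). Overload raised F2rl1 by 4.49 in control and by 3.57 in cdKO (adjusted p 8.09e-08 and 2.81e-05). The difference between the effects of the knockout under the 2 loads was -0.92 (SE 0.82, adjusted p 0.963), so it was not shown that the knockout acts on F2rl1 only under load. The adjusted p of F2rl1 rose to 0.193, 0.0734, 0.154 and 0.131 without control replicate 2, control replicate 3, cdKO replicate 2 and cdKO replicate 3, to 0.0763 with only the groups compared in the fit, to 0.0673 with thinned counts and to 0.358 with the Y-linked covariate. The estimate stayed between -2.02 and -1.38 in all the alternatives run.

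Cxcl13 lies on chromosome 5 (95956951 to 95961068, plus strand). It had 5.17, 7.79 and 2.33 CPM in control, from 3, 12 and 2 counts, and 40.2, 20.8 and 40.4 CPM in cdKO, from 26, 16 and 36 counts. The 3 cdKO libraries lay above the 3 control libraries, of which 2 were at or under the floor of 3 counts. Cxcl13 rose by 2.58 on the log2 scale (SE 0.47, adjusted p 0.0250). In sham muscle both genotypes had a level like that of cdKO overload, 56.1 CPM in control and 43.5 CPM in cdKO. Overload lowered Cxcl13 by 3.25 in control (adjusted p 2.26e-05), while the estimate of overload in cdKO was -0.38. The difference between the effects of the knockout under the 2 loads was 2.87 (SE 0.60), with an adjusted p of 0.183. The adjusted p of the overloaded comparison rose to 0.350, 0.266 and 0.149 without control replicate 3, cdKO replicate 1 and cdKO replicate 3, to 0.207 in limma voom, to 0.0763 with only the groups compared and to 0.439 with the Y-linked covariate, and the estimate was at most 3.38 and above 2 in all the alternatives run.

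The promoters of the genes in hand were searched for the TEAD-binding letters GGAATG, or CATTCC on the other strand. The window ran from 250 bases before to 50 bases after the RefSeq start on GRCm38.p6. The letters occur in 14.7% of all 32851 windows and for 14.2% of the 6260 tested genes with a window. Of the 29 genes called, next by p or always read, 21 had a window and 8 of those held the letters. Among the 8 were Wwtr1, Yap1, Ccn1 and Ankrd1, which were always read whatever their values. The 8 of 21 is therefore not a share among genes picked by p alone. Of the 34 genes on a list of reported YAP, TAZ and TEAD targets, 24 had a window and 10 held them. The sets share genes, among them Amotl2. The AP-1 letters TGANTCA, for a factor that often binds beside TEAD, were in 7.81% of all windows. They occurred for 6.13% of the tested genes with a window, for 3 of the 21 and for 1 of the 24. The 3 windows with TEAD letters shown here belong to a called gene (Cxcl13), to the target with the smallest p (Amotl2) and to a classic target whose level was alike in both genotypes (Ccn1). They are written 5′ to 3′ on the strand of the gene, with the TEAD letters in capitals, at chr5:95956689-95956988 (plus), chr9:102717554-102717853 (plus) and chr3:145649936-145650235 (minus).
Cxcl13: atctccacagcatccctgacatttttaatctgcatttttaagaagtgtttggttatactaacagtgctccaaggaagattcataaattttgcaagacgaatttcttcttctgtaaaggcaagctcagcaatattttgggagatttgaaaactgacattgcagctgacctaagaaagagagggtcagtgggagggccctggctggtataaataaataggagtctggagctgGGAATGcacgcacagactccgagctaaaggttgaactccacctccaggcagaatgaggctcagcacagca
Amotl2: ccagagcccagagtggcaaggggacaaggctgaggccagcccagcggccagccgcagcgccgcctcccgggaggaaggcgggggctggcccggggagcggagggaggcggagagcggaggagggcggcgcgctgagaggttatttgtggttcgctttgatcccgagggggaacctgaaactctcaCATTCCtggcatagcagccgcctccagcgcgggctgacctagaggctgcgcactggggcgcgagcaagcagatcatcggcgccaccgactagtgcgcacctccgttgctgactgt
Ccn1: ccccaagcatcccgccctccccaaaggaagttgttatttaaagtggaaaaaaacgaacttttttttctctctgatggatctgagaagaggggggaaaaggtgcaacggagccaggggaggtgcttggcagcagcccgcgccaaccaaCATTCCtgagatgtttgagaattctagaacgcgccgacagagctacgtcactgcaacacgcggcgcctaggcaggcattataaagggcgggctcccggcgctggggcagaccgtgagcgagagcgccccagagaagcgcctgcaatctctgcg
The first capital lies 20, 65 and 103 bases before the start in Cxcl13, Amotl2 and Ccn1. A match of letters is a description of the window and says nothing of binding in these cells.

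None of the 24 tested members of the target list (of 34) passed over all genes. Their median log2 fold change was -0.01, beside 0.03 for all genes, with 12 estimates higher and 12 lower. An unadjusted p under 0.05 was found for 5 lower and 1 higher member, against 3.25% and 3.73% of all genes. Amotl2, which encodes a junction protein that holds YAP in the cytoplasm and is itself a target, had 48.2, 33.8 and 40.9 CPM in control and 18.5, 14.3 and 7.86 CPM in cdKO. The groups lay apart, and the estimate was -1.59 (SE 0.37, adjusted p 0.264). Igfbp3, which encodes a carrier of insulin-like growth factors, had 25.8, 75.3 and 58.4 CPM in control and 12.4, 14.3 and 23.6 CPM in cdKO, with an estimate of -1.68 (SE 0.41, adjusted p 0.294). Its groups were also apart, by a narrow margin at control replicate 1. With the Y-linked covariate in the edgeR fit, the Igfbp3 estimate was -0.45 (SE 0.49, adjusted p 0.959). That of Amotl2 was -1.69 (SE 0.48, adjusted p 0.476). Vgll3, which encodes a TEAD-binding cofactor, had a mean of 44.9 CPM ± 9.80 (SD, n = 3) in control and 19.8 CPM ± 7.78 (SD, n = 3) in cdKO. Gadd45a, a gene induced by stress and DNA damage, was the member with an unadjusted p under 0.05 in the other direction, at 86.8 CPM ± 10.7 and 133 CPM ± 27.2 (SD, n = 3).

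The most used readouts of YAP and TAZ did not pass. Ccn1 had 79.3, 111 and 98.1 CPM in control and 77.2, 120 and 83.1 CPM in cdKO, with an estimate of -0.06 (SE 0.35, adjusted p 0.988). Ccn2, whose protein promotes matrix production, had 295, 1348 and 1619 CPM in control and 691, 784 and 832 CPM in cdKO. The control libraries spanned more than the whole cdKO group, because replicate 1 was low, and the estimate was -0.50 (SE 0.53, adjusted p 0.920). Thbs1, which encodes the matricellular protein thrombospondin-1, had 2700, 2513 and 3090 CPM in control and 2182, 1966 and 1863 CPM in cdKO. All cdKO libraries were lower, but the estimate of -0.47 (SE 0.29) did not pass, with an adjusted p of 0.815. Ankrd1 had too few counts to be tested. Of 21 tested Hippo kinases, adaptors and TEAD factors (of 27), none passed and the median was -0.09. Amotl2, Vgll3 and Wwc2, a scaffold that activates the LATS kinases, were the 3 members with an unadjusted p under 0.05. All 3 were lower in estimate, where 3.25% of all genes were lower at that level, and the first 2 are also on the target list. Wwc2 had 66.2 CPM ± 12.2 in control and 40.5 CPM ± 6.90 in cdKO (SD, n = 3).

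Genes of cell division had the lowest medians among the 28 lists of processes, although none passed over all genes. Neither the medians nor the counts of tested members can be read for these lists in the usual way. The reason is that 9 of 11 tested G2 and M phase genes and 7 of 17 tested S phase genes passed the filter on low counts only through the control overloaded libraries. Over all members with any count, the cdKO mean was below the control mean in 19 of 22 S phase genes and 23 of 25 G2 and M phase genes. The groups lay apart with cdKO lower in 5 of 22 and 10 of 25, against 2.06% of 37990 genes with any count. They lay apart with cdKO higher in 0 of 22 and 0 of 25, against 3.43%. Among the 8161 genes tested, which have more counts, the shares were 5.31% lower and 5.38% higher. Summed over the list, S phase genes had 560, 1138 and 1045 CPM in control and 562, 381 and 528 CPM in cdKO. G2 and M phase genes had 445, 918 and 732 CPM in control and 355, 143 and 330 CPM in cdKO. For both sums control replicate 1 was the lowest control library, level with cdKO replicate 1 for S phase, and cdKO replicate 2 was the lowest of all 6. In sham muscle the S phase sums of both genotypes were below every overloaded library, and the G2 and M phase sums were below every overloaded library but cdKO replicate 2 and close to it. Fewer dividing cells and less of these RNAs per dividing cell cannot be told apart in bulk libraries.

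**Figure D3:**
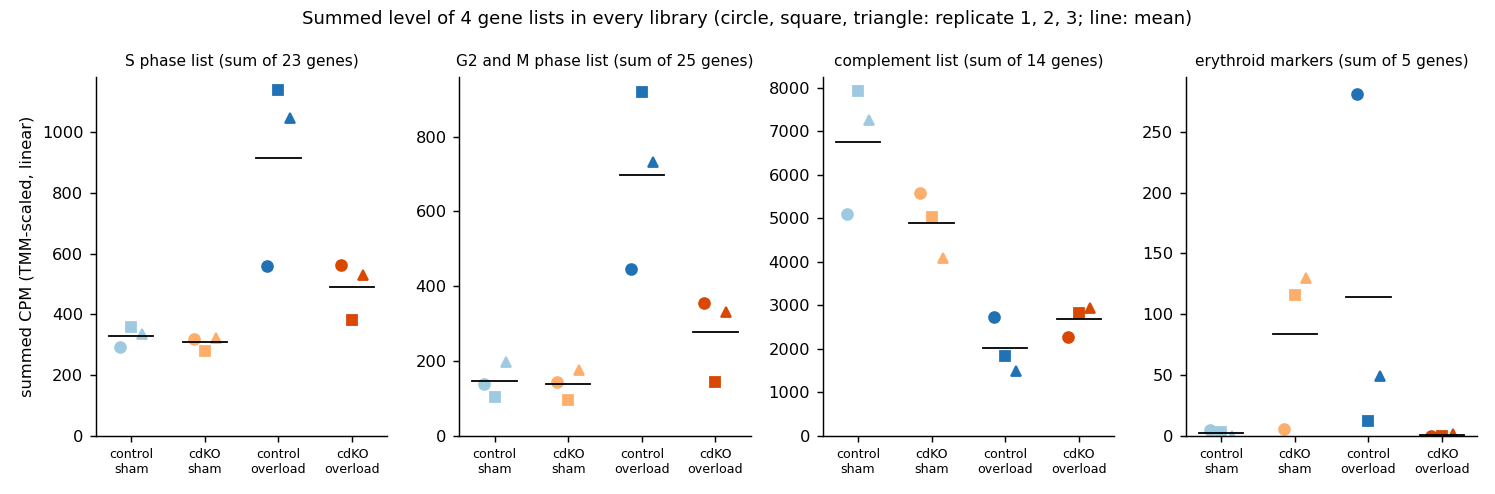
Summed CPM (vertical axes, linear, each from 0) of the members of 4 gene lists in the 12 libraries, with symbols for replicate 1, 2 and 3 and lines for group means. The S phase and G2 and M phase sums of control overload replicate 1 (560 and 445 CPM) lie nearer to the cdKO overload libraries than those of replicates 2 and 3 do, and that library has the highest erythroid sum (281 CPM).

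Asf1b, which encodes a histone chaperone of replication, had 36.2, 85.0 and 42.0 CPM in control and 13.9, 10.4 and 20.2 CPM in cdKO. Tpx2, whose protein builds the mitotic spindle, had 32.7, 79.2 and 37.4 CPM in control and 12.4, 13.0 and 15.7 CPM in cdKO. Both genes separated the groups, with estimates of -1.89 (SE 0.39) and -1.89 (SE 0.39), and both had an adjusted p of 0.0948. Asf1b was called in 3 of 17 alternatives and Tpx2 in 3 of 18. Those were edgeR's newer dispersion model, no filter on low counts and the fit without control replicate 1. Mki67, the proliferation marker Ki-67, had 24.1, 28.6 and 40.9 CPM in control and 4.63, 6.50 and 11.2 CPM in cdKO (estimate -2.01, SE 0.56, adjusted p 0.360). In Top2a, the topoisomerase that untangles replicated DNA, and in Rrm2, which supplies deoxynucleotides, control replicate 1 lay inside the cdKO range. Top2a had 58.6, 178 and 173 CPM in control and 69.5, 29.9 and 52.8 CPM in cdKO, and Rrm2 had 58.6, 186 and 183 CPM and 63.3, 14.3 and 57.3 CPM. Without control replicate 1 the comparison called 34 genes, 17 higher and 17 lower, in place of 3. Asf1b, Tpx2, Top2a and Rrm2 were then among the lower ones. Without control replicate 2, edgeR gave Asf1b, Tpx2 and Top2a estimates of -1.38, -1.34 and -1.22, each with an adjusted p of 0.999. Over the alternatives in which each gene was tested, the estimate ran from -2.21 to -1.35 for Asf1b, from -2.16 to -1.17 for Tpx2 and from -1.86 to -0.75 for Top2a, with the smallest of each in the fit with the Y-linked covariate. Of 10 D cyclins and CDK inhibitors tested, none passed, and Cdk4, the kinase that D cyclins activate, had 382 CPM ± 107 in control and 263 CPM ± 73.1 in cdKO (SD, n = 3).

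Lists of growth and the cytoskeleton also had medians below that of all genes, again with 0 members called in edgeR. For 31 tested actin cytoskeleton and focal adhesion genes the median was -0.30, and 28 estimates were lower. An unadjusted p under 0.05 was found for 6 lower and 0 higher members, against 3.25% and 3.73% of all genes. Acta2, smooth muscle actin and the usual mark of a myofibroblast, had 186, 336 and 304 CPM in control and 159, 53.3 and 212 CPM in cdKO. Those groups overlapped, since cdKO replicate 3 was above control replicate 1, and the estimate was -0.97 (SE 0.37, adjusted p 0.631). Tpm1, a tropomyosin that stabilises actin filaments, had 125 CPM ± 9.96 and 84.7 CPM ± 24.9, and Actn1, the crosslinker alpha-actinin, 272 CPM ± 64.7 and 182 CPM ± 42.1 in control and cdKO (SD, n = 3). Without control replicate 2 or control replicate 3, 2 of 30 tested members were lower at an unadjusted p under 0.05, without cdKO replicate 2, 1 of 31, and with the Y-linked covariate 1 of 31. The median was -0.16, -0.30, -0.34 and -0.12 in those 4 fits, and 1.84%, 2.62%, 2.43% and 2.06% of all genes were lower at that level.

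For 21 tested ribosome biogenesis and MYC target genes the median was -0.41, with 19 estimates lower. Nhp2 and Gar1, proteins of the particles that modify ribosomal RNA, were the members with an unadjusted p under 0.05. Both were lower in estimate, where 3.25% of all genes were lower at that level. Nhp2 had 39.6, 59.7 and 37.4 CPM in control and 21.6, 14.3 and 26.9 CPM in cdKO. Ncl, nucleolin, had 1117, 1079 and 1451 CPM in control and 924, 865 and 818 CPM in cdKO (estimate -0.48, SE 0.24, adjusted p 0.734). For 13 tested sterol synthesis genes the median was -0.48, with 12 estimates lower. Hmgcs1, which makes the substrate of HMG-CoA reductase, had 215, 269 and 307 CPM in control and 179, 143 and 148 CPM in cdKO, and its groups lay apart (estimate -0.76, SE 0.24, adjusted p 0.452).

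**Figure D4:**
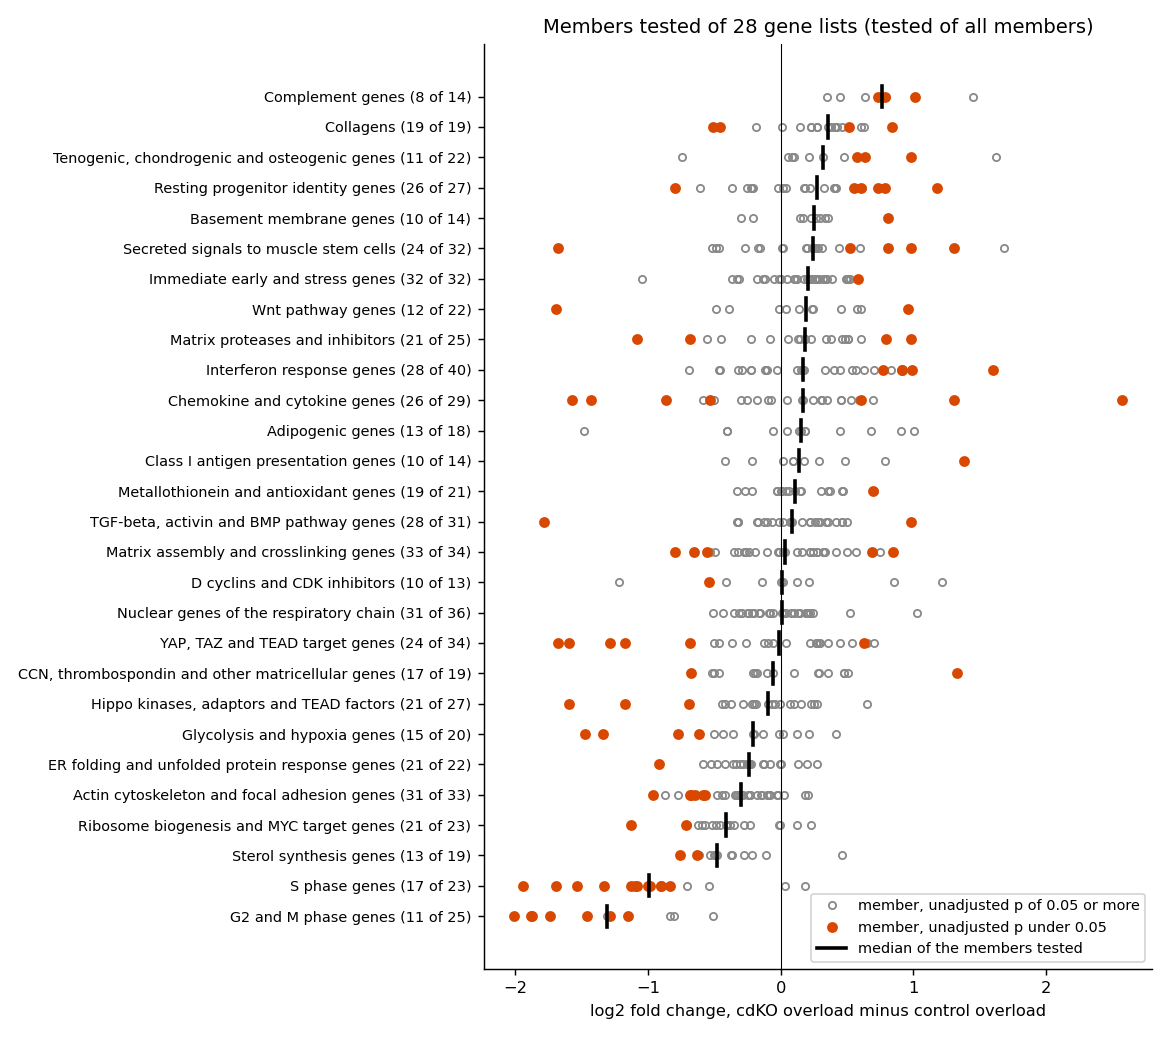
Log2 fold change of cdKO against control in overloaded muscle (horizontal axis) for the tested members of 28 gene lists, ordered by the median (black bar); filled points have an unadjusted p under 0.05. The medians run from -1.31 for G2 and M phase genes, most of which passed the count filter only through control libraries, to 0.76 for complement genes, and Cxcl13 (2.58) is the only called member.

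Complement genes had the highest median of the 28 process lists, 0.76, with all 8 tested members of 14 estimated higher. An unadjusted p under 0.05 was reached by 3 of them, where 3.73% of all genes were higher at that level. C3, the central complement protein, had 159, 83.1 and 133 CPM in control and 232, 196 and 187 CPM in cdKO, with the groups apart (estimate 0.74, SE 0.25, adjusted p 0.501). Cd55, which restrains complement on cell surfaces, had 34.5 CPM ± 10.6 in control and 57.4 CPM ± 12.5 in cdKO (SD, n = 3). The summed list had 2729, 1827 and 1477 CPM in control and 2259, 2817 and 2945 CPM in cdKO, so control replicate 1 again lay within the cdKO range. For 26 tested genes of resting progenitors the median was 0.28, with 5 higher and 1 lower member at an unadjusted p under 0.05, against 3.73% and 3.25% of all genes. Without cdKO replicate 2 the median was 0.05, with 0 higher members and 13 of 26 estimates lower. Without control replicate 2 or control replicate 3 there was 1 higher member. Of all genes, 2.43%, 1.84% and 2.62% were lower at that level in those fits, in the order named. The shares of all genes higher there are not given here, so the loss of higher members cannot be read as particular to this list. Scara5, a scavenger receptor of adventitial progenitors, had 8.02 CPM ± 0.88 in control and 18.6 CPM ± 10.6 in cdKO (SD, n = 3), with the groups apart. Gsn, the actin-severing protein gelsolin, had 8796, 6599 and 4542 CPM in control and 8416, 15860 and 8851 CPM in cdKO; its groups overlapped. In sham muscle Scara5 and Gsn were far higher in both genotypes, at 124 and 108 CPM and at means above every overloaded library. Of 28 tested interferon response genes, 5 were higher and 0 lower at an unadjusted p under 0.05, against 3.73% and 3.25% of all genes. Their median was 0.17. The higher members went to 1 without control replicate 2, to 2 without control replicate 3 and to 1 with the Y-linked covariate. Without cdKO replicate 2 there were 3 higher and 3 lower, with a median of -0.02. For those fits the shares of all genes are given above for lower members only, so the fall in higher members cannot be read as particular to this list. Parp14 had 5.99 CPM ± 2.56 in control and 17.8 CPM ± 7.11 in cdKO (SD, n = 3), and Mndal, a DNA-binding protein of the Ifi200 family, 65.5, 27.3 and 38.5 CPM and 72.6, 88.4 and 75.2 CPM.

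Among 26 tested chemokine and cytokine genes, Cxcl13 was the called one. At an unadjusted p under 0.05, 3 members were higher and 4 lower, against 3.73% and 3.25% of all genes. Il6, a cytokine that also acts on muscle stem cells, had 293, 400 and 528 CPM in control and 1037, 672 and 1315 CPM in cdKO. The cdKO libraries were all higher, and the estimate was 1.31 (SE 0.32, adjusted p 0.304). Il1rl1, the receptor of interleukin-33, had 460, 1170 and 1003 CPM in control and 334, 144 and 408 CPM in cdKO (estimate -1.58, SE 0.39, adjusted p 0.304). Cxcl5, a neutrophil chemokine, had 613, 1590 and 1266 CPM in control and 439, 220 and 629 CPM in cdKO, where cdKO replicate 3 was just above control replicate 1 (estimate -1.43, SE 0.34, adjusted p 0.294). Overload had raised Il1rl1 and Cxcl5 by 6.68 and 4.71 in control. DESeq2 with its default filter called Il6, Cxcl5 and Procr and gave Wwtr1, F2rl1 and Cxcl13 no adjusted p, and without that filter it called the same 3 genes as edgeR and none of the others.

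Among secreted signals to muscle stem cells, 4 of 24 tested members were higher and 1 lower at an unadjusted p under 0.05, against 3.73% and 3.25% of all genes. Bmp2, a bone morphogenetic protein, had 115, 81.8 and 72.4 CPM in control and 167, 187 and 173 CPM in cdKO, and its groups lay well apart (estimate 0.98, SE 0.25, adjusted p 0.304). Lama2, the laminin chain of the muscle basement membrane, had 60.2 CPM ± 21.4 and 102 CPM ± 39.8 (SD, n = 3). Serpine2, a protease inhibitor, had 252, 175 and 156 CPM in control and 324, 337 and 485 CPM in cdKO (estimate 0.99, SE 0.28, adjusted p 0.360). Of 19 collagens tested, 16 estimates were higher and 3 lower, with a median of 0.36. In sham muscle the median of the same genes was 0.41, also with 3 estimates lower, so the direction was not particular to overload. At an unadjusted p under 0.05 in overloaded muscle there were 2 higher and 2 lower members in edgeR, against 3.73% and 3.25% of all genes. In limma voom there were 9 higher and 1 lower. In that fit 4.31% of all genes were lower. The share of all genes higher there is not given here, so the 9 has no background to be read against. The groups lay apart in 5 with cdKO higher and in 2 with cdKO lower, against 5.38% and 5.31% of the genes tested. Col14a1, a collagen that coats fibrils, had 482, 418 and 200 CPM in control and 661, 762 and 547 CPM in cdKO. Col12a1, a fibril-associated collagen of loaded tissue, had 169, 174 and 175 CPM in control and 153, 121 and 106 CPM in cdKO. Both separated the groups, in opposite directions. Lox, the enzyme that crosslinks collagen, had 853, 1262 and 1097 CPM in control and 766, 477 and 806 CPM in cdKO (estimate -0.65, SE 0.28, adjusted p 0.653). Cilp, a matrix protein of cartilage, had 1377, 1542 and 1176 CPM and 1811, 2423 and 1875 CPM (estimate 0.58, SE 0.24, adjusted p 0.644). Its estimate in sham muscle was larger, at 1.33 (SE 0.26).

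The 10 genes each way with the smallest p whose groups lay apart were not called. Higher in estimate were Crispld1, Procr, Ccng2, Il6, Snx10, Tnfrsf10b, Bmp2, Cd200, Gpt2 and Sema3c, with estimates from 0.93 to 1.78. Lower in estimate were Asf1b, Tpx2, Amotl2, Igfbp3, Shmt2, Lrrc40, Il1rl1, Anp32b, Hsp90aa1 and Mki67, with estimates from -2.13 to -0.88. Procr, the endothelial protein C receptor that also marks some stem cells, had 141, 147 and 153 CPM in control and 385, 234 and 573 CPM in cdKO. The control libraries were nearly equal and the cdKO libraries were all higher and more scattered (estimate 1.43, SE 0.33, adjusted p 0.294). Ccng2, a cyclin of cells that stop dividing, had 20.7, 10.4 and 23.3 CPM in control and 51.0, 35.1 and 51.6 CPM in cdKO (estimate 1.41, SE 0.35). Tnfrsf10b, a death receptor, had 25.8, 15.6 and 17.5 CPM and 74.2, 33.8 and 56.1 CPM (estimate 1.52, SE 0.39). Shmt2, the mitochondrial enzyme that turns serine into one-carbon units, had 196, 288 and 251 CPM in control and 150, 111 and 140 CPM in cdKO (estimate -0.88, SE 0.23), and the chaperone gene Hsp90aa1 had 377, 226 and 302 CPM and 176, 143 and 165 CPM (estimate -0.90, SE 0.24).

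**Figure D5:**
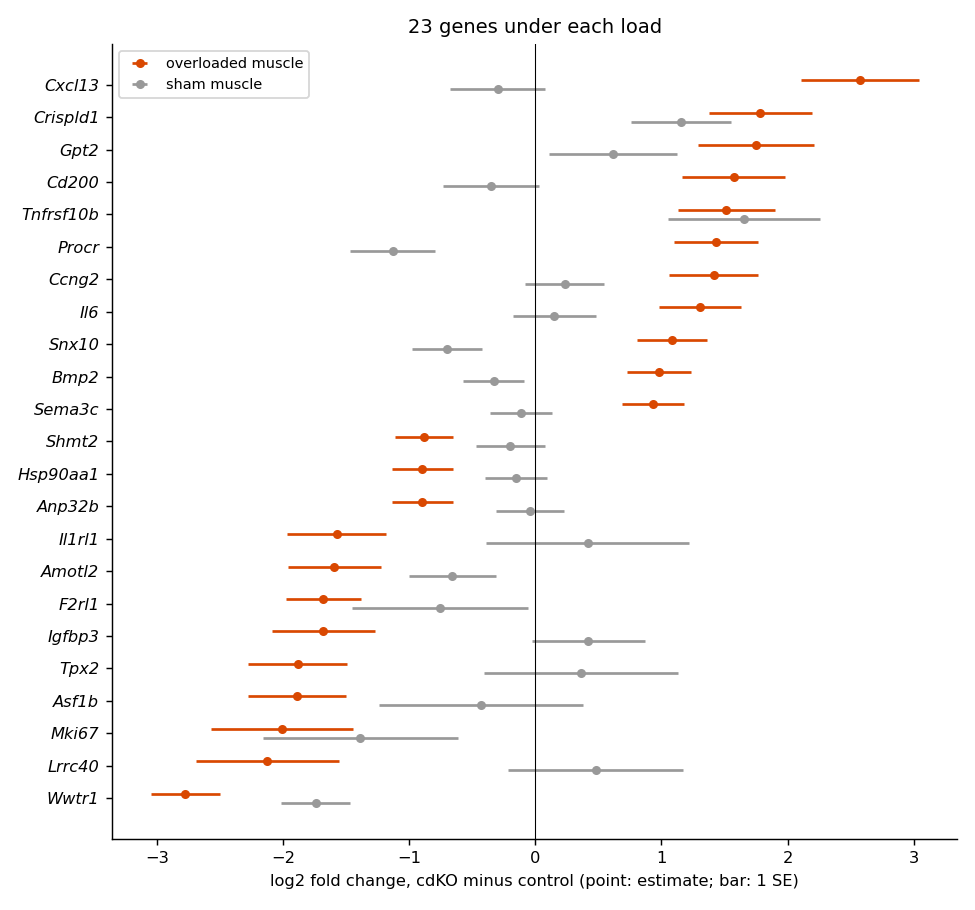
Log2 fold change of cdKO against control (horizontal axis, bars of 1 SE) for 23 genes in overloaded (orange) and sham muscle (grey). The genes were chosen by their overloaded values, so only the sham points are independent of the choice; Wwtr1 (-1.74) is the one gene called in sham, and Procr (-1.13) and Snx10 (-0.70) point the other way there.

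The sham libraries share no sample with the overloaded comparison. There 1 gene passed, Wwtr1 (0.0123% of those tested), and 4.09% had an unadjusted p under 0.05. A test of whether the knockout acted differently under the 2 loads called 0 genes in edgeR, with 427 at an unadjusted p under 0.05 (5.23% of those tested), 0 called in limma voom and 1, Procr, in DESeq2. For Procr the estimate in sham was -1.13 (SE 0.33), from 472 to 218 CPM in the group means, and the difference between loads was 2.56 (SE 0.48, adjusted p 0.167). Snx10, a sorting nexin of endosomes, had a sham estimate of -0.70 (SE 0.28) and a difference of 1.78 (adjusted p 0.236). Pcolce2, which speeds the trimming of procollagen, had 37.9, 37.0 and 42.0 CPM in control overload and 63.3, 59.8 and 65.1 CPM in cdKO overload, against means of 173 and 103 CPM in sham (difference 1.43, adjusted p 0.298). Parp14 likewise had sham means of 59.2 and 30.9 CPM (difference 2.56, adjusted p 0.298).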

How the data were processed

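The authors deposited raw counts of reads per gene for 12 libraries of a low-input 3′-end protocol (CEL-Seq2, per the labels' protocols). The submitters' processing notes name the build GRCm38, the trimmer Trim Galore (0.6.6), the aligner HISAT2 (2.2.1), the counter featureCounts (2.0.1) and DESeq2 (1.26.0). The sources used here do not give the strand setting, molecular identifiers or annotation release, so antisense reads could count towards a gene, and near-identical genes (haemoglobins, Ifi200 genes) are uncertain. Floors cover counting error only. Here edgeR 4.0.16 (R 4.3.3) kept 8161 of 54100 genes by filterByExpr, scaled them by TMM and fitted all 12 libraries in 1 robust quasi-likelihood model of group means. Tests are two-sided, Benjamini-Hochberg adjusted over all genes tested, and called means adjusted p under 0.05. SE is the absolute log2 fold change over the square root of F. Within the overloaded groups no 2 libraries agreed to counting noise (chi-square over degrees of freedom 4.45 to 19.2). Coordinates come from GENCODE M21 by identifier (54100 matched) and promoters from RefSeq. Named genes were Wwtr1, Yap1, Ankrd1, Ccn1, Ccn2, Thbs1 and Pdgfra, all called genes, the 10 each way with the smallest p among uncalled genes whose groups lay apart (higher group at 20 CPM or more), and up to 4 members with the smallest p of each of 39 lists. The members and lists were chosen with earlier results of these data known. Alternatives were DESeq2 1.42.0, limma 3.58.1 voom, other scaling, filter and fits, a replicate block and each library left out; the covariate, thinning, library size, legacy setting and DESeq2 without its filter were added after seeing the data.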

Additional observations from a re-analysis of the deposited data

How the results depend on the processing

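The count of 3 called genes in overloaded muscle became 17 with no filter on low counts, 1 with only the groups compared in the fit, 5 with edgeR's newer dispersion model, 5 with counts thinned to the smallest library and 1 with the Y-linked covariate; leaving out each library gave 1 to 34. In sham muscle the 1 call became 2 in DESeq2 with and without independent filtering, 2 in limma voom and 2 with only the groups compared, and 0 to 1 with a library left out. For the difference between loads, 0 calls became 1 in DESeq2 with and without its filter, 10 with no filter on low counts and 1 with thinned counts, and 0 to 1 with a library left out. The cause was not tested. Replicate numbers did not pair the overloaded libraries (correlations of deviations of -0.03, -0.23 and -0.09 for the same number), and a replicate block gave 3, 1 and 0 calls, as without it. Of the 82 genes read under the alternatives, Ccn1 changed sign without control replicate 2, cdKO replicate 1 or cdKO replicate 3 (all libraries left out in turn gave -0.277 to 0.0647) and with the Y-linked covariate (0.73), and Ccn2 with that covariate (0.90), from estimates near 0 relative to their SE. Wwtr1 was called in 18 of 18 alternatives that gave it an adjusted p, Cxcl13 in 12 of 18 and F2rl1 in 11 of 18. A median SE of 0.35 over all genes on the log2 scale limits what 3 libraries a group can show.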

Other observations

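Several other gene groups had medians from -0.06 to 0.21 in overloaded muscle, beside 0.03 for all genes, and none of their members was called. The 31 tested nuclear genes of the respiratory chain had a median of 0.01 and no member with an unadjusted p under 0.05 in edgeR. The 28 tested genes of the TGF-beta, activin and BMP pathways had a median of 0.08, with 1 higher and 1 lower member at that level. The 13 tested adipogenic genes had a median of 0.16, with 0 and 0. Over all genes in edgeR, 3.73% were higher and 3.25% lower at that level. In limma voom the adipogenic median was 0.36, with 3 higher and 0 lower. In that fit 4.31% of all genes were lower, and the share higher is not given here. Immediate early and stress genes had a median of 0.21 over 32 tested members. Dusp1, a phosphatase that ends MAP kinase signals, was their 1 member at an unadjusted p under 0.05, with 133 CPM ± 33.3 in control and 197 CPM ± 42.0 in cdKO (SD, n = 3). Among matricellular genes (17 tested, median -0.06), Ccn3 and Thbs2 differed in opposite directions in estimate. Ccn3 had 10.3, 8.44 and 5.84 CPM in control and 9.27, 27.3 and 23.6 CPM in cdKO, and Thbs2, thrombospondin-2, had 155, 134 and 117 CPM and 95.8, 76.7 and 80.8 CPM. Tap2, which carries peptides to class I molecules, had 10.3, 8.44 and 5.84 CPM in control and 13.9, 23.4 and 25.8 CPM in cdKO, beside a median of 0.14 for the 10 tested genes of class I antigen presentation. Steap4, a metalloreductase on the pericyte marker list, had 155, 155 and 106 CPM in control and 256, 260 and 255 CPM in cdKO (estimate 0.89, SE 0.25, adjusted p 0.360). Prg4, lubricin, had 5117, 6551 and 7229 CPM in control and 10787, 7165 and 11411 CPM in cdKO, with 1 cdKO library inside the control range.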
